A study of Rattus norvegicus with 30 samples.

Results

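The intermediate filament genes of the injured sciatic nerve and its sensory ganglia were followed in 8 members: Nefl, Nefm and Nefh (the light, medium and heavy neurofilament subunits), Prph (peripherin), Ina (alpha-internexin), Gfap (glial fibrillary acidic protein), Vim (vimentin) and Nes (nestin). Members were chosen by name, as the probes whose gene name in the array files is one of these 8, which gave 10 probes of 41012 non-control probes: 1 for each gene and a further probe for Gfap and for Nes. All 8 genes passed the filter on dim signals in both tissues. The study hybridized RNA of adult male Sprague-Dawley rats, whose sciatic nerve had been resected, to 30 single-colour Agilent rat arrays. The proximal sciatic nerve segment (SN) and the lumbar dorsal root ganglia (DRG) were each sampled at 0, 1, 4, 7 and 14 d, with 3 arrays at each time point and tissue, and the 0 d groups are the controls. The methods describe 3 biological replicates for each time point of the nerve, but how many rats an array holds is not given in the sources used here. The p-values therefore measure the spread between arrays, which may be technical in part.

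Intermediate filaments are rope-like polymers of coiled-coil proteins. In mature neurons the light, medium and heavy neurofilament proteins assemble together, often with peripherin or alpha-internexin, and fill the axon, whose calibre depends on them. The cell bodies of sensory axons lie in the DRG, and those of motor axons in the spinal cord, where neurons transcribe these subunits. Schwann cells can also make neurofilament transcripts after axons are cut. Glial fibrillary acidic protein marks non-myelinating Schwann cells and satellite glia, vimentin is the filament of fibroblasts, Schwann cells, endothelium and macrophages, and nestin is found in Schwann cells and in dividing or immature cells. Nerve tissue holds all of these cell types beside axons, and the axons hold some transcripts of their own, so that a signal in SN may be axonal or glial.

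Values are normalized signals, log2 of the processed intensity of a probe minus the 75th percentile of the same array, so that a value of 0 is the 75th percentile. A probe was called changed at an adjusted p under 0.05 with a fold change over 2, and its level was compared with that of the same probe only. Between 26941 and 35573 probes were well above background per array, and arrays of the same group correlated at r of 0.985 to 0.997. DRG 0 d replicates 2 and 3, which lay on a slide of their own, had the fewest such probes of all arrays, 26941 and 28560. All 0 d arrays were scanned on a day on which no other array was scanned, and within a tissue no slide held arrays of more than 1 time point. A change against 0 d and a difference between scan days or slides thus cannot be told apart. The labels of the tissues were set against cell type markers at 0 d. All 8 neuron markers tested were called higher in DRG, and all 5 fibroblast and all 5 endothelial markers higher in SN. Of 7 Schwann cell markers 3 were called higher in SN. The 3 satellite glia markers tested were split, with 1 called higher in SN and 1 in DRG. Over all tested probes 21.9% were called higher and 16.6% lower in SN. Skeletal muscle markers differed widely between SN arrays, with a summed level (linear scale, 1 being the 75th percentile) of 98.4 to 1330 at 0 d and 5.54 to 65.8 at 7 d.

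The array reads each gene through a probe of 60 bases, and 4 of them are shown because the results turn on what they read. Nefl and Nefh, whose time courses parted in SN, are read at chr15:47638898-47638957 (plus strand) and chr14:85595648-85595707 (minus strand) of rn4. The probe for Vim, the member with the least movement, lies at chr17:87851390-87851449 (plus strand), and the further probe for Gfap, at chr10:92063083-92063142 (minus strand), was designed on the alternatively spliced epsilon transcript. Capitals mark the longest run that a probe shares, on either strand, with a probe of another member. These runs were 7 to 9 bases long, so that no long stretch was common to the probes of different members.
Nefl: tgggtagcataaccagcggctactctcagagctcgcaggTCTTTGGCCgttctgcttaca
Nefh: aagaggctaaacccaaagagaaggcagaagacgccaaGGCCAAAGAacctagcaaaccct
Vim: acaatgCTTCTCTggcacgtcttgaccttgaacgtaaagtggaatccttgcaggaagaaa
Gfap epsilon: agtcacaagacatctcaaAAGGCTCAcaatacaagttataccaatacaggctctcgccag
The Nefm gene lies on chromosome 15 beside Nefl, its probe being at chr15:47698645-47698704 on the opposite strand, and Prph, Ina and Nes are read on chromosomes 7, 1 and 2.

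Before injury the members split by tissue, with the 5 neuronal subunits far higher in DRG and vimentin and nestin higher in SN. Of the 8 members 7 were called different between SN and DRG at 0 d, 5 lower and 2 higher in SN. Of all tested probes 38.5% were called, 16.6% lower and 21.9% higher. Nefl read 6.65, 6.50 and 6.48 in the 3 DRG arrays and -4.22, -4.67 and -3.78 in the 3 SN arrays, a level 1740-fold lower in SN (log2 difference -10.77, SE 0.30, adjusted p = 1.52e-19). The log2 difference was -11.28 (SE 0.35) for Nefh, -9.07 (SE 0.32) for Nefm, -8.67 (SE 0.25) for Ina and -6.21 (SE 0.14) for Prph, with no overlap between the tissues' arrays. The sizes depend on the processing. With normexp background correction and quantile normalization they were -9.79 for Nefl, -9.81 for Nefh, -8.96 for Nefm, -6.7 for Ina and -6.3 for Prph. Neuron markers stood beside these subunits, with differences from -4.51 for Thy1 to -10.58 for Scn10a, the sodium channel of pain-sensing neurons. In such bulk samples, fewer cells of a type and less RNA per cell cannot be told apart.

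Nes was 4.42-fold higher in SN (log2 difference 2.14, SE 0.12, adjusted p = 7.24e-14), with 6.19 to 6.55 in SN against 3.98 to 4.52 in DRG. Vim was 2.42-fold higher in SN (log2 difference 1.28, SE 0.08), although after quantile normalization over all arrays the difference was 0.70, under the fold threshold. Gfap was not called, at a log2 difference of 0.55 (SE 0.30, adjusted p = 0.103), and its arrays overlapped. On the slide that held all 3 SN arrays and 1 DRG array of 0 d, the differences were -10.88 for Nefl, -9.08 for Nefm, -11.35 for Nefh, -6.18 for Prph, -8.89 for Ina, 0.51 for Gfap, 1.21 for Vim and 1.88 for Nes, close to those over all arrays.

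**Figure D1:**
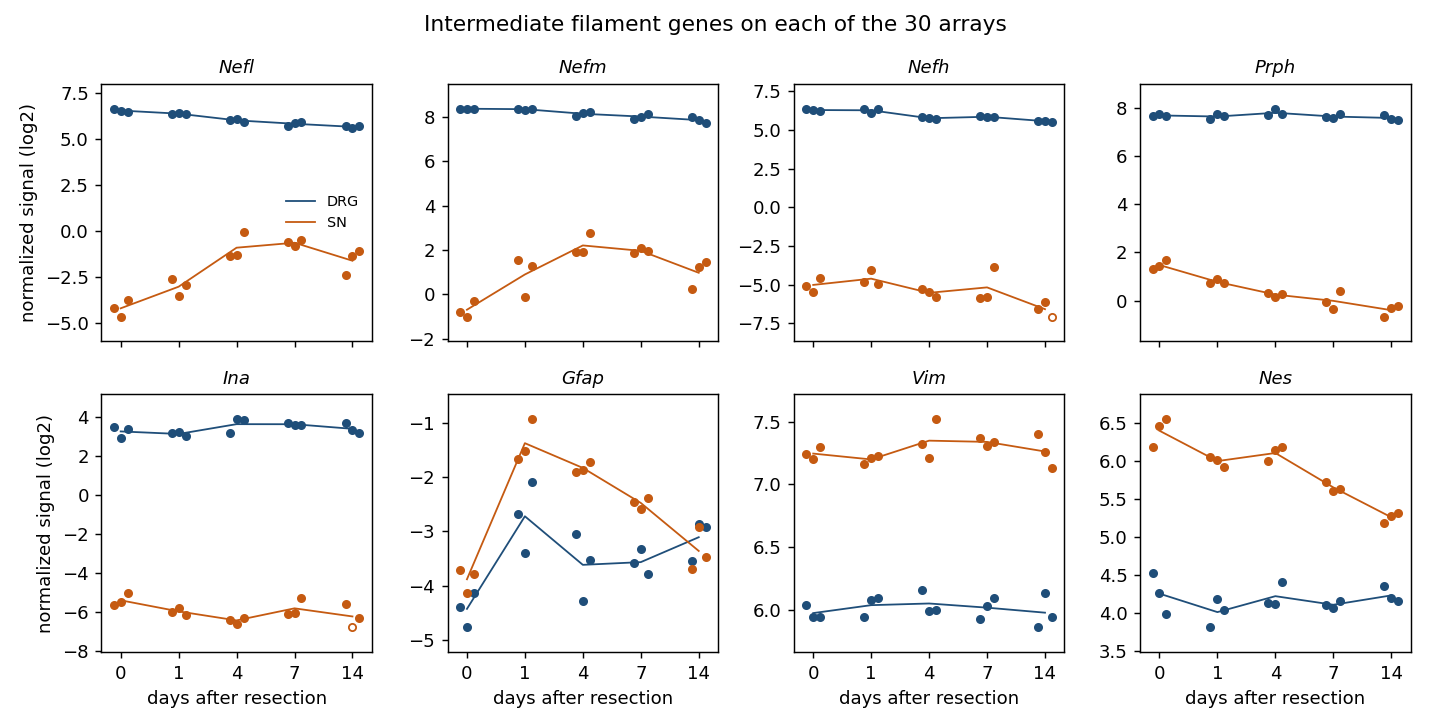
Normalized signal (log2, vertical axis, a separate scale for each gene) of the 8 intermediate filament genes on all 30 arrays at 0, 1, 4, 7 and 14 d (horizontal axis, evenly spaced), in DRG (blue) and SN (orange). Points are arrays, lines join the means of 3 arrays, and open points are not well above background. Nefl rises in SN from between -4.67 and -3.78 at 0 d to between -0.84 and -0.49 at 7 d, while in DRG it declines from 6.54 to 5.66 on average.

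In SN the light and medium neurofilament transcripts rose after injury while the heavy one did not. Nefl was called higher on each of the 4 days, and so was Nefm, whereas Nefh was called only on the last, and then lower. Counting all 8 members, 3, 3, 3 and 2 were called higher on the days in order, and 0, 2, 1 and 3 lower. Over the same days 22.1%, 22.7%, 24.9% and 19.8% of all probes tested in SN were called, and the members' counts of 3, 5, 4 and 5 stand beside these shares as a description. The shares called higher were 18.6%, 15.9%, 18.1% and 14.3%, and those called lower 3.43%, 6.78%, 6.81% and 5.46%.

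Nefl, the subunit on which neurofilament assembly rests, read -4.22, -4.67 and -3.78 in SN at 0 d and -2.62, -3.55 and -2.97 at 1 d. It then read -1.37, -1.31 and -0.09 at 4 d and -0.63, -0.84 and -0.49 at 7 d. The last time point, 14 d, gave -2.43, -1.36 and -1.11. Every array after injury lay above every 0 d array, and the 7 d arrays lay closest together. The rise was 2.26-fold at 1 d (log2 change 1.18, SE 0.40, adjusted p = 0.0235), 9.86-fold at 4 d (3.30, adjusted p = 2.19e-05), 11.9-fold at 7 d (3.57, adjusted p = 1.19e-05) and 6.03-fold at 14 d (2.59, adjusted p = 0.000196). The call at 1 d was lost without SN 0 d replicate 2 (0.95, adjusted p = 0.09), without SN 1 d replicate 1 (0.96, adjusted p = 0.0892) or replicate 3 (1.14, adjusted p = 0.06), and after quantile normalization (0.74, adjusted p = 0.124). From 4 d on, leaving out any single array left the adjusted p at 0.00118 or below. The rise was smaller but still called at 4, 7 and 14 d after quantile normalization (2.93, 3.19 and 2.22 on the log2 scale) and when normexp background correction was added to it (2.24, 2.49 and 1.61).

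Nefm, the subunit that carries side arms of middle length, read -0.79, -1.0 and -0.29 in SN at 0 d. Its 1 d arrays read 1.53, -0.13 and 1.29, with replicate 2 well below the others, and its 4 d arrays 1.92, 1.93 and 2.77. At 7 d they read 1.85, 2.07 and 1.97, and at 14 d 0.22, 1.24 and 1.46. All later arrays were again above those of 0 d, and replicate 1 was the lowest of 14 d for Nefm as it was for Nefl. The rise was 3.01-fold at 1 d (log2 change 1.59, SE 0.43, adjusted p = 0.00641), 7.49-fold at 4 d (2.90, adjusted p = 9.45e-05), 6.32-fold at 7 d (2.66, adjusted p = 0.00019) and 3.18-fold at 14 d (1.67, adjusted p = 0.00559). Under the methods' t-test after Benjamini-Hochberg adjustment the calls at 1 d (adjusted p = 0.0802) and 14 d (adjusted p = 0.0552) were lost. Within an array, the difference Nefl minus Nefm was higher than at 0 d by 0.40 ± 0.23, 0.91 ± 0.25 and 0.92 ± 0.04 at 4, 7 and 14 d (log2, SD of the day's arrays, n = 3), with no overlap with 0 d on these days. At 1 d it was -0.41 ± 0.46 and overlapped.

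Nefh, whose long tail is heavily phosphorylated in axons, took another course. It read -5.05, -5.44 and -4.54 at 0 d. The 1 d arrays read -4.80, -4.05 and -4.97 and the 4 d arrays -5.30, -5.49 and -5.77, and both later groups overlapped that of 0 d. At 7 d replicates 1 and 2 read -5.84 and -5.80 while replicate 3 read -3.87, the highest of the 15 SN arrays. The same array was also the highest at 7 d for Ina, Prph and the neuron markers Elavl4, Snap25 and Scn10a. At 14 d Nefh read -6.56, -6.12 and -7.05, the last of these not well above background, and was 2.97-fold lower than at 0 d (log2 change -1.57, SE 0.47, adjusted p = 0.0134). That call was lost with the slide as a random block (adjusted p = 0.0539), and without SN 0 d replicate 3 (-1.34, adjusted p = 0.0535) or SN 14 d replicate 3 (-1.33, adjusted p = 0.0528). The change was -2.06 after quantile normalization and -0.63, under the fold threshold, with normexp background correction and quantile normalization. The changes at 1, 4 and 7 d were 0.40, -0.51 and -0.16 (SE 0.47 each, adjusted p of 0.478, 0.362 and 0.775), and the 95% interval at 4 d, -1.54 to 0.51, lies below the changes of Nefl and Nefm on that day. Within an array, Nefl minus Nefh was higher than at 0 d by 3.81 ± 0.94, 3.74 ± 0.99 and 4.16 ± 0.92 at 4, 7 and 14 d, with no overlap.

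Prph and Ina fell in SN. Peripherin, which is strongest in small sensory and autonomic neurons, read 1.32, 1.42 and 1.69 at 0 d, then 0.72, 0.89 and 0.72 at 1 d. The 4 d arrays read 0.32, 0.14 and 0.29. It read -0.06, -0.35 and 0.38 at 7 d and -0.66, -0.31 and -0.22 at 14 d. Each day's arrays lay below all 0 d arrays, and the means declined from each sampled day to the next, with overlap between 4 and 7 d and between 7 and 14 d. The fall was called at 4 d (2.34-fold, log2 change -1.23, SE 0.17, adjusted p = 6.49e-05), 7 d (2.80-fold, adjusted p = 1.45e-05) and 14 d (3.66-fold, log2 change -1.87, adjusted p = 3.58e-06). At 1 d the change was -0.70 (adjusted p = 0.00372), under the fold threshold.

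Ina, the subunit of small-calibre and developing axons, was dim in SN throughout. The control arrays read -5.66, -5.51 and -5.04, the 1 d arrays -5.99, -5.78 and -6.15 and the 4 d arrays -6.42, -6.60 and -6.29. The 7 d arrays read -6.10, -6.05 and -5.30 and the 14 d arrays -5.60, -6.79 and -6.31, of which replicate 2 was not well above background. The arrays of 1 and 4 d lay below all control arrays, and those of 7 and 14 d overlapped them. In the fit reported here it was called at 4 d alone, 2.05-fold lower (log2 change -1.03, SE 0.29, adjusted p = 0.00797), and without SN 0 d replicate 3 that change was -0.85, without SN 4 d replicate 2 it was -0.95, and with normexp background correction and quantile normalization -0.47, each under the fold threshold. At 1, 7 and 14 d the changes were -0.57, -0.41 and -0.83 (adjusted p of 0.102, 0.231 and 0.0269). The days on which Ina was called depended on the scaling. After quantile normalization alone the changes were -1.36, -1.52 and -1.38 at 1, 4 and 14 d (adjusted p of 0.00308, 0.00159 and 0.00366), all called, and in the deposited matrix that of 7 d was called as well (-1.02, adjusted p = 0.0168). SN 0 d replicate 3 had the highest level of the 3 control arrays for each of Nefl, Nefm, Nefh, Prph and Ina.

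The neuron markers did not follow Nefl and Nefm as a list. The summed level of 8 neuron markers in SN was 3.15 to 4.35 in the controls, 2.52 to 3.21 at 1 d, 2.83 to 2.93 at 4 d, 3.01 to 3.56 one time point later and 1.82 to 2.17 at 14 d, and Syt1 (synaptotagmin) was well above background on 1 of the 15 SN arrays. The summed level, on the linear scale, rests mostly on Uchl1, which read 1.27 to 1.76 at 0 d and was the brightest of the 8 on every SN array. Of 7 tested in SN, 1, 2, 2 and 2 were called higher on the 4 days in order, and 1, 3, 2 and 4 lower. Scn10a read -5.64, -5.56 and -5.53 at 0 d and -3.28, -2.94 and -3.65 at 1 d, and Thy1, which fibroblasts also carry, read -3.49, -3.69 and -3.79 at 0 d and -1.31, -1.59 and -1.12 at 14 d. Isl1, a transcription factor of sensory neurons, went the other way, from -4.27, -3.74 and -4.08 at 0 d to -6.48, -6.32 and -6.04 at 4 d. Other cell types moved in SN on the same days. The summed level of 5 macrophage markers was 19.6 to 22.2 at 0 d and 88.8 to 114 at 4 d, and that of 7 Schwann cell markers was 478 to 586 at 0 d and 203 to 235 at 7 d. Their part in the changes of the filament genes was not tested.

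**Figure D2:**
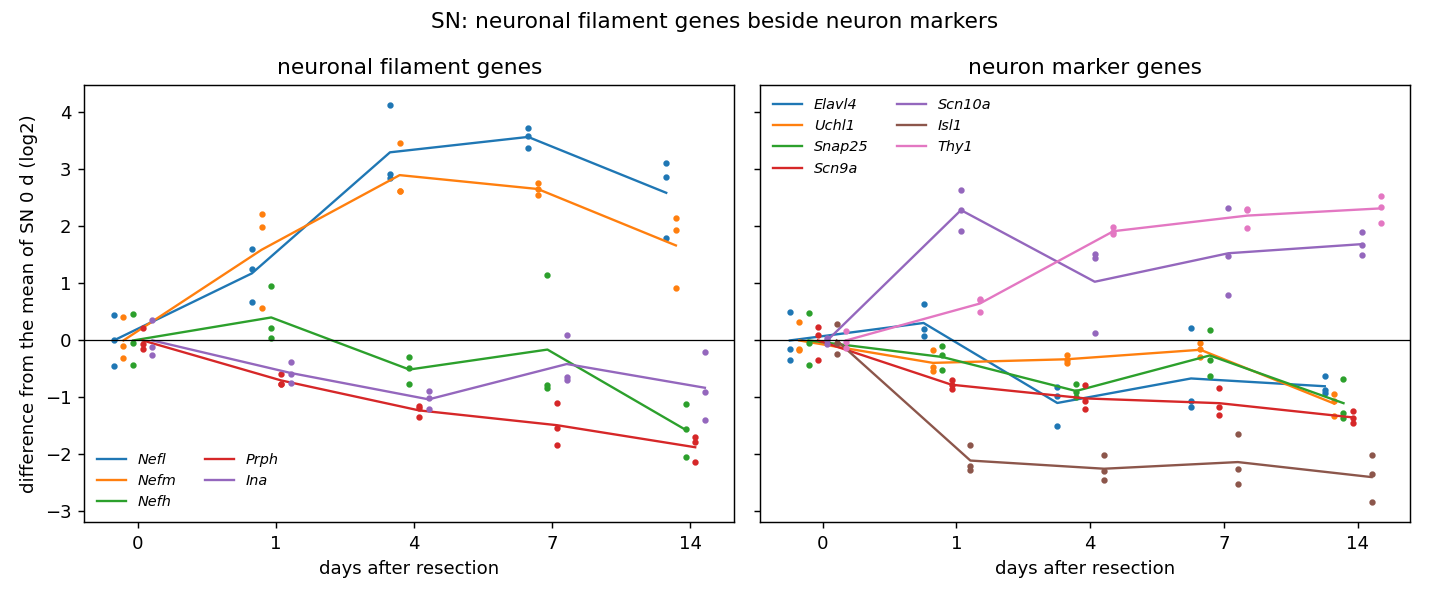
Difference of each SN array from the mean of the SN 0 d arrays (log2, vertical axis) at 0, 1, 4, 7 and 14 d (horizontal axis), for the 5 neuronal filament genes (left) and for 7 neuron markers (right). Points are arrays and lines join the means of 3 arrays. Nefl and Nefm climb while Prph declines, and among the markers Scn10a and Thy1 lie above 0 d and Isl1 below it.

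The glial members parted in SN as well, Gfap rising and Nes falling, with Vim close to its control level. Gfap read -3.72, -4.14 and -3.79 at 0 d and -1.66, -1.52 and -0.93 at 1 d. Its level then lay between -1.90 and -1.72 at 4 d, between -2.58 and -2.38 at 7 d and between -3.70 and -2.91 at 14 d. The arrays of each day were separate from those of the days before and after, with the highest level at 1 d. The rise was 5.70-fold at 1 d (log2 change 2.51, SE 0.21, adjusted p = 2.01e-06), 4.16-fold at 4 d (2.06, adjusted p = 5.54e-06) and 2.65-fold at 7 d (1.41, adjusted p = 0.000114), and at 14 d the change was 0.52 (adjusted p = 0.0523). After quantile normalization the changes at 1, 4 and 7 d were 2.18, 1.75 and 1.05, and with normexp background correction as well they were 1.63, 1.25 and 0.72, the last of these under the fold threshold. The probe for the epsilon transcript read -4.43, -4.18 and -4.00 at 0 d and -2.34, -2.12 and -1.86 at 1 d, and rose by 2.10, 1.94 and 1.44 on the log2 scale at 1, 4 and 7 d, each called. Of the 7 Schwann cell markers 0 were called higher in SN at any day, and 2, 4, 3 and 3 were called lower at 1, 4, 7 and 14 d.

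Nes read 6.19, 6.46 and 6.55 in SN at 0 d, and 5.92 to 6.18 on the 6 arrays of 1 and 4 d. The 7 d arrays read 5.72, 5.61 and 5.63 and the 14 d arrays 5.18, 5.28 and 5.32. Every later array was below the 0 d arrays, with mean changes of -0.40, -0.29 and -0.74 at 1, 4 and 7 d (adjusted p of 0.00318, 0.019 and 3.18e-05), and the call was reached at 14 d (2.20-fold lower, log2 change -1.14, SE 0.10, adjusted p = 1.86e-06). The change at 14 d was -0.89 after quantile normalization, under the fold threshold. The further nestin probe, which lies upstream in the same transcript, was called lower at 7 d (-1.03, adjusted p = 6.25e-06) and 14 d (-1.49, adjusted p = 6.46e-07). All 3 markers of dividing cells tested were called higher in SN at 4, 7 and 14 d, beside this fall.

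Vim stayed between 7.13 and 7.52 on the 15 SN arrays. Its changes were -0.04, 0.10, 0.09 and 0.02 at 1, 4, 7 and 14 d (SE 0.09 each, adjusted p of 0.687, 0.325, 0.371 and 0.883), with 95% intervals that reach at most 0.30. These values depend on the scaling, since after quantile normalization the changes were 0.33, 0.39, 0.37 and 0.36, each with an adjusted p of 0.00878 or below, while with the median of each array subtracted the change at 1 d was -0.32 (adjusted p = 0.0329). The direction of Vim is thus not settled, and none of these changes reached the fold threshold. Quantile normalization shifted the median change of all probes by -0.19 to 0.09 over the comparisons made.

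**Figure D3:**
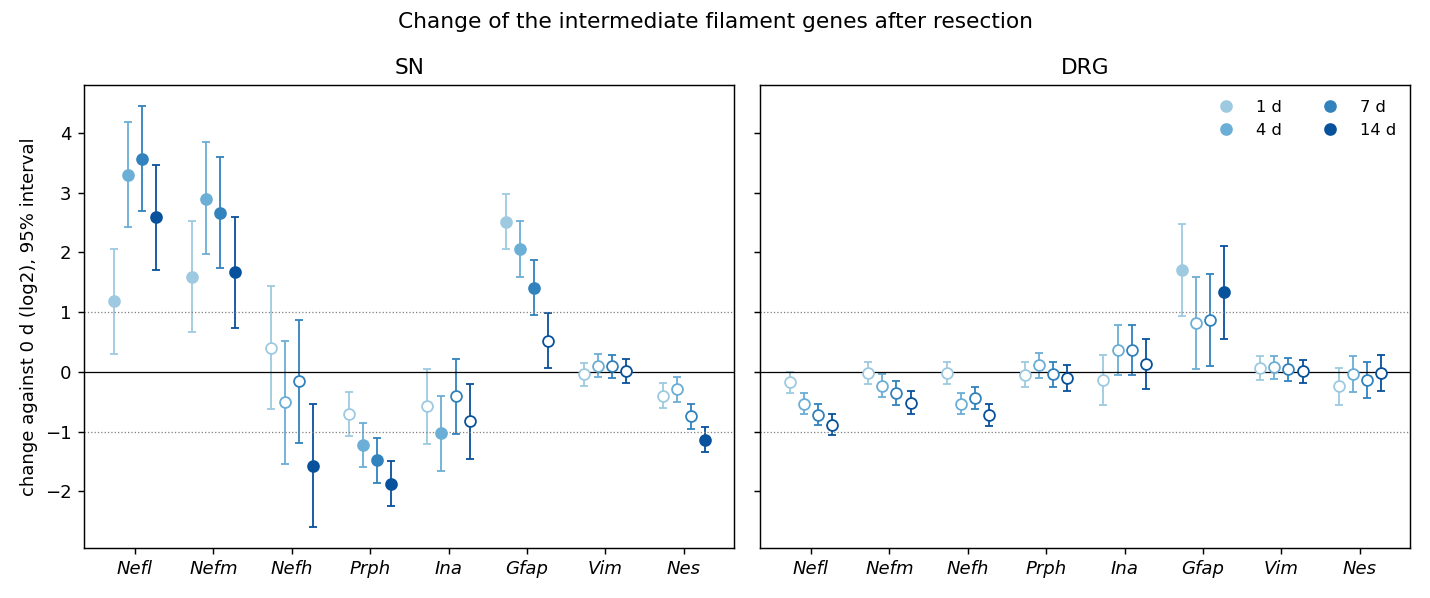
Change against 0 d (log2, vertical axis) of the 8 genes (horizontal axis) at 1, 4, 7 and 14 d (light to dark blue) in SN (left) and DRG (right). Points are limma estimates over 3 arrays a group, bars are 95% intervals, filled points were called, and dotted lines mark a 2-fold change. In SN the points reach from -1.87 to 3.57, and in DRG the called points are those of Gfap at 1 and 14 d.

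In DRG all 3 neurofilament subunits read lower at 7 and 14 d than at 0 d by less than the fold threshold, and Gfap was the only member called. Of 8 members 1, 0, 0 and 1 were called on the 4 days in order, where 7.6%, 6.54%, 6.91% and 13.5% of all probes tested were called. Called higher were 7.43%, 6.04%, 6.58% and 13%, and called lower 0.169%, 0.506%, 0.326% and 0.46%. At an adjusted p under 0.05 without the fold threshold the numbers were 1, 2, 3 and 4 of 8, against 18.1%, 31.3%, 23.8% and 38.5% of all probes. Of these members 0, 2, 3 and 3 were lower, in each case neurofilament genes, against 3.28%, 8.63%, 6.87% and 9.63% of all probes.

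Nefl read 6.36, 6.42 and 6.34 in DRG at 1 d, below its 3 control values given above, and 6.02, 6.09 and 5.92 at 4 d. The 7 d arrays read 5.70, 5.86 and 5.91, and the 14 d arrays 5.68, 5.61 and 5.68. No 2 of the 5 days overlapped, and each was lower than the one before. The change was -0.17 at 1 d (adjusted p = 0.167), -0.53 at 4 d (adjusted p = 0.000757), -0.72 at 7 d (adjusted p = 7.84e-05) and -0.89 at 14 d (SE 0.08, 1.85-fold lower, adjusted p = 1.23e-05). The change at 14 d passed the fold threshold, and so would have been called, after quantile normalization (-1.09), with normexp as well (-1.06), in the deposited matrix (-1.09) and with the median of each array subtracted (-1.15).

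In DRG Nefh read 6.34, 6.28 and 6.21 at 0 d, and its 1 d arrays, at 6.34, 6.07 and 6.37, overlapped these. The 4 d arrays read 5.80, 5.75 and 5.69, the 7 d arrays 5.86, 5.85 and 5.82 and the 14 d arrays 5.56, 5.59 and 5.52, all below 0 d. The changes at 4, 7 and 14 d were -0.53, -0.43 and -0.72 (SE 0.08 each, adjusted p of 0.000948, 0.00312 and 7.52e-05). Nefm read 8.38, 8.37 and 8.37 at 0 d and 8.0, 7.85 and 7.73 at 14 d, a change of -0.52 (SE 0.09, adjusted p = 0.000915), and of -0.36 at 7 d (adjusted p = 0.0134). The arrays of 7 and 14 d lay below those of 0 d for all 3 subunits. With the SN arrays added to the fit, which widened the estimate of the spread, only the change of Nefl at 14 d kept an adjusted p under 0.05 (0.0222). The others were at 0.175 and 0.0834 for Nefl at 4 and 7 d, 0.247, 0.382 and 0.105 for Nefh at 4, 7 and 14 d, and 0.437 and 0.205 for Nefm at 7 and 14 d. The change of Nefm at 7 d was also lost without DRG 7 d replicate 1 (-0.30, adjusted p = 0.058). The summed level of the 8 neuron markers was 208 to 214 at 0 d and 164 to 175 at 14 d in DRG, with 0 of 8 called on any day, and its part in the lower neurofilament signal was not tested.

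Peripherin and alpha-internexin did not share this course in DRG. Prph lay between 7.48 and 7.97 on all 15 DRG arrays, with changes between -0.11 and 0.11 (SE 0.10, adjusted p of 0.40 or above), and its arrays overlapped those of 0 d on every day. With the median of each array subtracted, however, Prph was lower at 14 d (-0.37, adjusted p = 0.0143). Ina lay between 2.93 and 3.89, with changes between -0.13 and 0.37 (SE 0.19, adjusted p of 0.16 or above). Its 7 d arrays lay above all 0 d arrays, and without DRG 4 d replicate 1 its 4 d change was 0.59 (adjusted p = 0.0183). Within an array, Nefl minus Prph was lower than at 0 d, with differences of -0.64 ± 0.11, -0.67 ± 0.10 and -0.78 ± 0.12 at 4, 7 and 14 d (log2, SD, n = 3), with no overlap.

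Gfap, in ganglia a marker of satellite glia that respond to injury, read -4.39, -4.77 and -4.13 in DRG at 0 d and -2.68, -3.39 and -2.09 at 1 d, a 3.27-fold rise (log2 change 1.71, SE 0.35, adjusted p = 0.00574). At 4 d it read -3.04, -4.29 and -3.52, which overlapped 0 d, and at 7 d -3.59, -3.33 and -3.78, which did not. At 14 d the arrays read -3.54, -2.87 and -2.91, 2.51-fold higher than at 0 d (1.33, adjusted p = 0.0114). That call was lost after quantile normalization (0.91, adjusted p = 0.0727), and the 1 d change was 1.39 after quantile normalization and 0.84, under the fold threshold, with normexp background correction as well. Under the methods' t-test after Benjamini-Hochberg adjustment the call at 1 d was lost (adjusted p = 0.102). The epsilon probe rose by 1.59, 1.21 and 1.38 at 1, 7 and 14 d, each called, with 1 of its 3 arrays at 0 d not well above background. Of the other satellite glia markers (Fabp7, Kcnj10, Glul and Slc1a3) 0 of 4 were called in DRG on any day. Vim lay between 5.86 and 6.16, with changes of 0.01 to 0.08 (SE 0.09), and Nes between 3.81 and 4.52, with changes of -0.24 to -0.02 (SE 0.14), and neither was called.

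The change in SN differed from that in DRG for Nefl, Nefm and Prph on all 4 days. The test of the difference itself, an interaction over all 30 arrays, passed an adjusted p under 0.05 for 3, 5, 4 and 5 of 8 members on the days in order, against 35.6%, 45.3%, 38.1% and 32.2% of all probes. For Nefl the SN change exceeded the DRG change by 3.83 at 4 d and by 4.29 at 7 d (log2, SE 0.43 each, adjusted p of 2.46e-07 and 5.12e-08). For Prph it was lower by -1.34 at 4 d and by -1.76 at 14 d (SE 0.20 each, adjusted p of 1.17e-05 and 4.7e-07). Nefh did not pass on any day, at 0.42, 0.02, 0.27 and -0.85 (SE 0.49 each). Slides held arrays of both tissues, and with the slide as a block 10 of the 17 differences still passed, those of Nefl, Nefm and Prph at 4, 7 and 14 d and of Nes at 14 d (-0.79, adjusted p = 0.0129). At 1 d the blocked values were 1.47 for Nefl (adjusted p = 0.0502), 1.59 for Nefm (adjusted p = 0.0953) and -0.57 for Prph (adjusted p = 0.219).

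Between successive days in SN, 2 members were called from 1 to 4 d, both higher, and 0 in the later steps. Of all probes 8.53% were called in the first step (3.4% higher), and 2.6% and 1.65% in the later steps. Nefl rose by 2.12 from 1 to 4 d (SE 0.40, adjusted p = 0.00188). Nefm rose by 1.31 (SE 0.43, adjusted p = 0.0305), a call that was lost without SN 1 d replicate 2 (0.80, adjusted p = 0.12) or SN 4 d replicate 3 (1.03, adjusted p = 0.118). From 7 to 14 d the differences were -0.98 for Nefl, -0.99 for Nefm, -1.40 for Nefh, -0.88 for Gfap and -0.39 for Nes. Their adjusted p were 0.141, 0.158, 0.0745, 0.0218 and 0.0227 in the same order. The 14 d arrays lay below those of 7 d for these 5 of 8 members. That count is a description, since no share of all probes so separated is given beside it. In DRG 0 members were called between successive days, against 4.27%, 0.177% and 0.0972% of probes. Without the fold threshold 2 members passed, both from 1 to 4 d, against 20%, 0.646% and 0.535% of probes. The DRG step with the lowest adjusted p was that of Nefh from 1 to 4 d (-0.51, adjusted p = 0.00238).

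Other genes of the filament system were taken from 4 lists: other intermediate filament proteins, their linkers, proteins that move, phosphorylate or degrade neurofilaments, and other parts of the axonal cytoskeleton. Of 13 other intermediate filament proteins tested in SN, 5, 4, 4 and 3 were called higher on the days in order and 2, 3, 3 and 2 lower, with a median change between -0.06 and 0.17 against 0.11 to 0.16 over all probes. On these days 18.6%, 15.9%, 18.1% and 14.3% of all probes were called higher and 3.43%, 6.78%, 6.81% and 5.46% lower. The nuclear lamin Lmnb1, which dividing cells carry at a high level, was called higher on all 4 days, but only 1 of its 3 arrays at 0 d was well above background, so that no size is given for its change. The simple-epithelium keratin Krt18 rose by 2.81 at 1 d (SE 0.20, adjusted p = 5.64e-07), and the basal keratin Krt14 by 1.91 (SE 0.22, adjusted p = 1.67e-05). Synm (synemin), a large filament protein that needs vimentin or desmin as a partner, fell by 1.21 at 7 d (SE 0.29, adjusted p = 0.00346), and desmin itself was not called, at changes between -0.88 and 0.00.

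The keratin Krt19 moved in opposite directions in the 2 tissues. It averaged 1.20 in SN at 0 d and -1.17 at 14 d, a change of -2.37 (SE 0.23, adjusted p = 6.1e-06), whereas in DRG it averaged -3.12 at 0 d and 0.50 at 7 d, a change of 3.61 (SE 0.24, adjusted p = 7.19e-07). The difference between the tissues' changes was -5.64 at 7 d (SE 0.34, adjusted p = 3.38e-11). Krt5 likewise fell by 1.70 in SN at 4 d (adjusted p = 0.000144) and was 1.15 higher in DRG at 14 d (adjusted p = 0.00723), with a difference of -2.80 at 14 d (SE 0.40, adjusted p = 9.98e-06). With Krt14, which was called higher in DRG at 4, 7 and 14 d, these were the only other filament proteins called in DRG, 3 of 13. Of all probes 16.6% were called higher in DRG on at least 1 day.

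**Figure D4:**
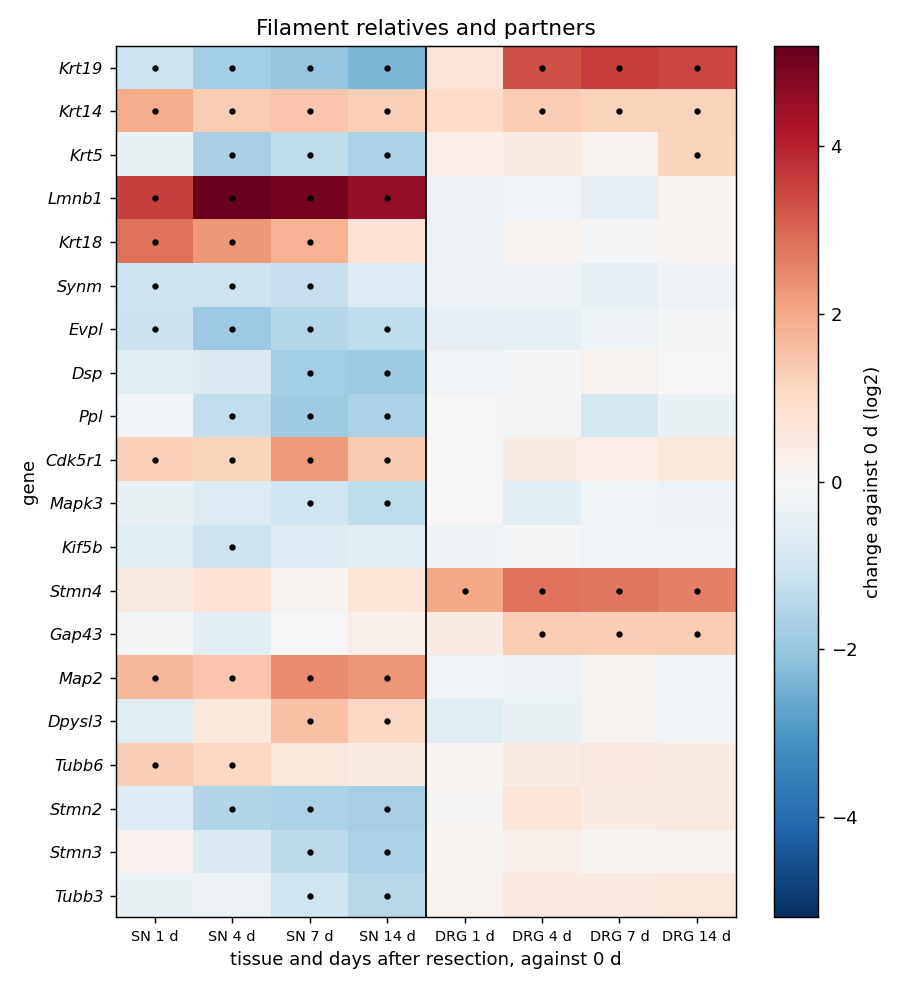
Change against 0 d (log2, colour) of the genes named from the 4 lists (vertical axis) at each day in SN and DRG (horizontal axis), with a black point where the gene was called. Krt19 is lower in SN and higher in DRG, by -2.37 at 14 d and 3.61 at 7 d. The fitted changes of Cdk5r1 and Map2 in SN start from 0 d arrays that are not well above background, as do those of Lmnb1 on all but 1 array, so that these colours are no measured sizes.

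Among linkers of intermediate filaments, the plakin-family proteins of cell junctions Evpl, Dsp and Ppl were called lower in SN, the largest fall of Evpl being at 4 d (log2 change -1.87, SE 0.15, adjusted p = 8.24e-07), and 0 of 6 were called in DRG. The list of transport, phosphorylation and turnover held 20 tested genes, of which 2 were ever called higher and 2 lower in SN and 0 in DRG. On at least 1 day 27.3% of all probes were called higher and 10.4% lower in SN, and 16.6% and 0.946% in DRG. Cdk5r1, the activator of a kinase that phosphorylates neurofilament tails, was at least 1.84-fold higher at 7 d than at 0 d, where it was not well above background. Mapk3 fell by 1.31 at 14 d (adjusted p = 3.7e-06) and the kinesin heavy chain Kif5b by 1.06 at 4 d (adjusted p = 2.86e-07), while Kif5a, the neuronal kinesin that carries neurofilaments, was not called in SN or DRG.

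Of 19 other axonal cytoskeleton genes in SN, 3 were called higher and 7 lower on at least 1 day, where 27.3% of all probes were called higher and 10.4% lower on at least 1 day. Map2, a microtubule protein of dendrites and of some glia, was at least 3.59-fold higher at 7 d, from 0 d arrays that were not well above background. Dpysl3, a growth cone protein, rose by 1.54 at 7 d (SE 0.17, adjusted p = 7.96e-06), and the tubulin Tubb6 by 1.28 at 1 d (SE 0.07, adjusted p = 1.35e-07). Stmn2, Stmn3 and Tubb3, neuronal microtubule genes, fell by 1.72, 1.63 and 1.45 at 14 d (adjusted p of 7.22e-05, 3.98e-06 and 2.67e-06). In DRG 2 of 19 genes were called, both higher, against 16.6% of all probes called higher and 0.946% lower on at least 1 day. Stmn4 rose by 2.82 at 4 d (SE 0.16, adjusted p = 1.98e-07) and Gap43, a growth cone protein of regenerating neurons, by 1.34 (SE 0.10, adjusted p = 1.84e-06), on the days on which Nefl and Nefh read lower.

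The genes whose signal ran most nearly with each member were listed over 15 arrays of a tissue, as a description without a test, since these arrays share their time points. In DRG, among 11553 genes, the highest Pearson r with Nefl were those of Tmem59 (0.969), Dynlt5 (0.967) and Vsnl1 (0.964), with Nefm those of Pappa (0.946), Tmem59 (0.941) and Slc25a22 (0.93), and with Nefh those of Slitrk4 (0.958), Slc24a2 (0.958) and Mdh2 (0.956). Tmem59 thus stood in the lists of both Nefl and Nefm. Those of Prph included Tubb4b (0.904) and Ndrg4 (0.854), and those of Ina were Slf2 (0.922), Vof16 (0.918) and Zfp26 (0.911). In SN, among 12152 genes, Gfap ran with Sap30bp (0.971), Fosl1 (0.968) and Dync1li1 (0.966), Nes with Abhd12 (0.972), Wasf1 (0.972) and Cndp1 (0.967), and Vim with Rab11b (0.842), Lmf2 (0.81) and Sbf1 (0.801).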

How the data were processed

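RNA was labelled with Cy3 and hybridized to 30 Agilent rat arrays (45018 spots). The authors deposited the scanner output of each array, read with Agilent Feature Extraction 10.5.1.1 per the file headers, whose processed intensity is background-subtracted but not normalized between arrays, and a matrix of log2 values that the authors normalized over all arrays. Here log2 of the processed intensity was taken, outlier spots were left out, the spots of a probe were averaged and the 75th percentile of each array was subtracted. A probe was tested if at least 1 group had it well above background on each of its 3 arrays, using limma (version 3.58.1) in R 4.3.3 with the packages statmod (1.5.0) and data.table (1.17.8), with Benjamini-Hochberg adjustment over all of them. Day comparisons used the 15 arrays of a tissue and share its 0 d arrays, and comparisons between tissues used all 30. The script was tested on simulated data. Genes are named by the array files (rn4), and list genes also through the RefSeq gene table, which held 13088 of 17504 accessions. Each gene is given by its brightest probe on average. From each list, up to 3 rising and up to 3 falling genes per tissue are named, by size of change among those called, and for likeness the 3 genes with the highest r. Genes and lists were chosen with earlier results of these data known. A gene not well above background on any 0 d array is given as a lower bound, against the higher of its own signal and the dimmest detected signal on each control array. Arrays carry no read depth, and 3 arrays a group limit the precision. Alternatives were other scalings, filters, arrays in the fit, blocks, the methods' t-test, a mean over probes and leaving out each array. Some genes that these rules name are not reported here.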

Additional observations from a re-analysis of the deposited data

Results flagged for a closer look

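The following changes after injury differed between SN and DRG in the interaction test (adjusted p under 0.05, limma over 30 arrays), each given as the SN change minus the DRG change on the log2 scale. On 1, 4, 7 and 14 d the difference for Nefl was 1.35, 3.83, 4.29 and 3.48, and for Nefm 1.61, 3.13, 3.01 and 2.19. The difference for Nefl at 1 d was lost without SN 0 d replicate 2 (1.12, adjusted p = 0.0547) or SN 1 d replicate 1 (1.14, adjusted p = 0.0543). For Prph it was -0.65, -1.34, -1.44 and -1.76 on the same days. Ina differed by -1.41 at 4 d and -0.96 at 14 d, Gfap by 1.24 at 4 d, and Nes by -0.60 at 7 d and -1.11 at 14 d. The difference for Gfap at 4 d was lost without DRG 4 d replicate 2 (0.91, adjusted p = 0.0848), DRG 0 d replicate 3 (1.09, adjusted p = 0.0589) or SN 0 d replicate 2 (1.11, adjusted p = 0.0553), and that for Ina at 14 d was lost when any 1 of 11 arrays was left out. Without SN 14 d replicate 2 it was -0.68 (adjusted p = 0.146).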

How the results depend on the processing

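The counts of calls given here take a gene once for each day on which it was called. Calls of members numbered 17 over 4 days in SN, 2 in DRG, 7 between the tissues at 0 d and 17 for the difference of changes. Between successive days they numbered 2 in SN and 0 in DRG. Calls of list genes numbered 63 in SN and 14 in DRG. With normexp background correction and quantile normalization, there were 40 calls of list genes in SN and 1 call of a member in DRG. The member called in DRG was then Nefl at 14 d (-1.06, adjusted p = 2.14e-06). Gfap in DRG changed by 0.84 at 1 d and 0.54 at 14 d in this setting, under the fold threshold. Without the fold threshold, calls of list genes numbered 152 in SN and 65 in DRG. Those of members numbered 10 in DRG, 6 between successive SN days and 2 between successive DRG days. The methods' t-test with adjusted p gave 1 call of a member in DRG. With or without adjustment it gave 1 between successive SN days, as did fits of only the arrays compared or with the slide as a random block. The slide as a fixed block, added after seeing the data, left 10 differences of changes. Subtracting each array's median was added likewise and shifted the median change by -0.28 to 0.12. Leaving out 1 array gave 15 to 18 calls of members in SN, 2 to 3 in DRG, 7 at 0 d and 14 to 19 differences. Between successive days it gave 1 to 3 in SN and 0 to 1 in DRG. Calls of list genes were then 55 to 63 in SN and 14 to 16 in DRG. The member called between successive DRG days came without DRG 1 d replicate 2 or DRG 4 d replicate 1. Of 5058 recomputed member changes, 4853 kept their side of the adjusted p threshold, a count that leaves the fold threshold aside. These include 120 from the setting without the fold threshold, which reuses the p-values of the main fit and so could not differ. Changes counted as kept can lie under the fold threshold, as Gfap in SN at 7 d did with normexp and quantile normalization (0.72). Reversed were 3: Vim in SN at 1 d, 0.33 under quantile normalization, with or without normexp, and in the deposited matrix. The cause was not tested. Same-numbered arrays deviated together with r of -0.267 to 0.216 in SN and -0.358 to 0.333 in DRG. Between SN and DRG arrays of the same day and number, r was -0.193 to 0.252. Numbers were not taken as pairs. With the replicate block, calls of members numbered 17 in SN, 2 in DRG, 7 at 0 d and 17 for the difference of changes. Dim signals limit Nefh and Ina in SN, where each had 1 array not well above background.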
